A study of Mus musculus with 24 samples.

Results

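Gene expression in anaplastic thyroid tumours of mice was compared with that of normal mouse thyroid on Affymetrix Mouse430A_2 arrays, which read each transcript with sets of short probes. The comparison holds 11 of the 24 arrays of the series. They are 5 tumour samples labelled ATC (anaplastic thyroid cancer) and 6 samples that the labels describe as pools of normal thyroid glands. Arrays were taken by their tissue label, and all 12394 genes with a probe set of their own were tested, each through its probe set of highest mean level across the 24 arrays. The question is which genes and gene groups separate the tumours from normal gland.

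The labels call the tumours thyroid tumor and the pools normal thyroid. For neither group do the sources used here name a genotype, strain, age, sex, promoter or inducing agent, and the design text speaks only of various mouse models at baseline. The growth and treatment fields read None. Titles fall into kinds, with JK in the titles of tumours 1 and 2 and of pools 1 to 4, which are also titled WT. Pools 5 and 6 are titled Cre, and tumours 3 to 5 carry a bare number. Replicates were numbered in record order, and samples of like number are not paired. The labels do not say that the tumours came from separate animals, and a pool averages several glands while no pooling is named for the tumours, so a p-value here reflects the scatter of these samples alone, part of which may be technical. In bulk RNA, fewer cells of a type and less RNA per cell cannot be told apart.

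The thyroid gland is built of follicles, hollow balls of epithelial cells that store the large protein thyroglobulin and make hormone by attaching iodide to it. The identity of follicular cells is held by the transcription factors Pax8, Nkx2-1, Foxe1 and Hhex under the drive of the thyrotropin receptor. Anaplastic cancer is the undifferentiated form of thyroid cancer. It is known for loss of hormone-making genes, spindle-shaped cells, fast division, a dense infiltrate of macrophages and, in many cases, a mutant BRAF kinase that keeps the MAPK cascade switched on.

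The deposited values are log2 intensities, so a difference of 1 is a 2-fold change, and every level and difference given here is on that scale. RMA, the normalization the submitters name, brings arrays to a like distribution and flattens the top of the range, and levels of different probe sets cannot be set against each other. Differences are tumour minus normal with their SE, tested with limma's moderated test on these 11 arrays and called at an adjusted p under 0.05. The arrays' medians ran from 7.47 to 7.58. Precision is bounded by the 5 and 6 arrays per group. Normal pools correlated with each other at a median of 0.988 over all genes and tumours with each other at 0.963, while pairs of a pool and a tumour had a median of 0.866. Along the component that held 71.97% of the variance, tumours lay between 56.7 and 75.2, pool 5 lay at -33.9 and the other pools between -62.2 and -56.3. Pool 5 and tumour 4 stand apart in several groups below. The 3' minus 5' signal of Gapdh, which reads RNA integrity and labelling, was 0.82 and 0.96 on tumours 1 and 2 but 0.07, 0.11 and 0.15 on tumours 3 to 5, against 0.64 to 0.98 in the pools. Its group difference of -0.33 gave an exact two-sided permutation p of 0.121, or 0.143 after adjustment over 4 such measures (the smallest p this design allows is 0.00433). The same measure of Actb differed by -0.44 (exact two-sided permutation p = 0.0368, or 0.143 adjusted), and by -0.004 among JK arrays. The part of RNA quality in the gene differences was not tested.

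Of the 12394 genes, 6317 were called, or 51.0% of those tested, with 2822 higher in tumours (22.8%) and 3495 lower (28.2%). The median difference over all genes was -0.08. In 4229 genes (34.1%) the groups did not overlap, with every tumour above every pool in 1852 (14.9%) and below in 2377 (19.2%). A difference shown to exceed 2-fold was found in 1175 genes (9.48%), 599 of them higher (4.83%) and 576 lower (4.65%). Called rises of over 4 on the log2 scale numbered 77 and called falls of that size 58. With this background, a gene list in which about 1 in 4 members rose and a like share fell is near the array as a whole, and the shares 22.8% and 28.2% are the ones to read each list's counts against.

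**Figure D1:**
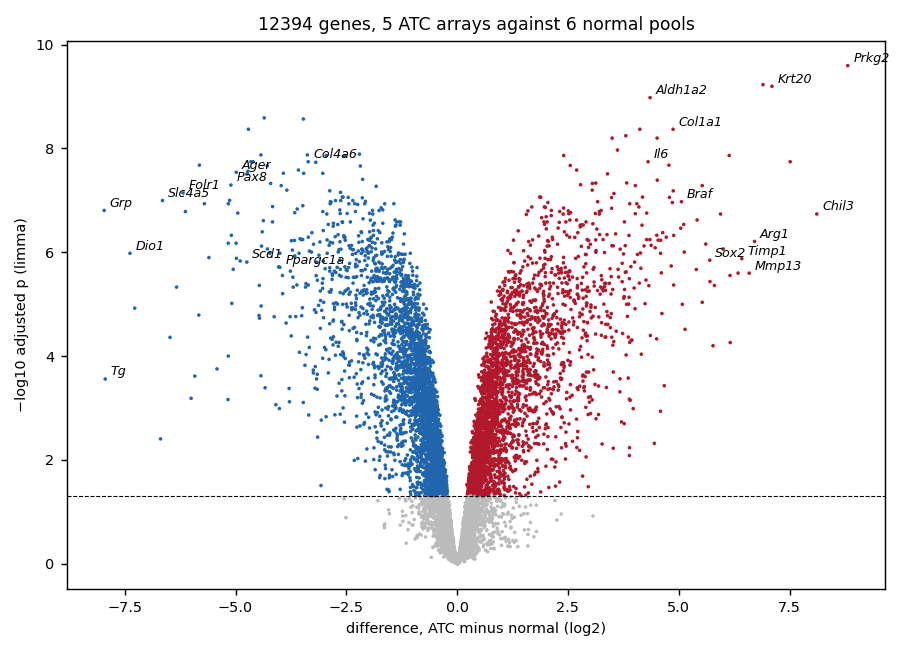
Each point is 1 of 12394 genes. The horizontal axis is the tumour minus normal difference (log2) and the vertical axis is the −log10 of the limma adjusted p, with red for called higher, blue for called lower, grey for not called and the dashed line at 0.05. Prkg2 stands at the far right with a difference of 8.81, and Grp and Tg at the far left with -7.96 and -7.94.

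Called genes that were followed one by one held their direction in either title series. The genes followed do not include every gene the naming rule picks. Lcn2, called and picked by that rule but not followed, changed sign among arrays without JK, as given at the end. Many were named for large differences on these same arrays, so agreement in sign within a part of the arrays was likely in advance. Among 160 called genes followed one by one, 0 changed sign between the 2 tumours and 4 pools titled JK, where 153 kept their call, and 0 changed sign between the other 3 tumours and 2 pools, where 135 did. Only 3424 of all genes were called among those 5 arrays, so counts fall there in most lists. Of the 6317 genes called at first, 5138 were called in the same direction among JK arrays and 3167 among the arrays without JK. Other fits named below are that of all 24 arrays, which takes its spread from every tissue of the series, and a fit with the bare-number titles as a block, an alternative added after the data were seen. Without pool 5 and without tumour 4, 159 of the 160 kept their call in each case.

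Prkg2, which encodes the membrane-anchored cGMP-dependent protein kinase II, had the largest rise on the array. Tumours 1 to 5 read 13.28, 12.76, 12.71, 13.39 and 13.05, and the lowest, median and highest pool read 3.79, 4.19 and 4.97. All 5 tumours thus lay within a span of less than 1 and every pool was far below them, at a difference of 8.81 ± 0.21 (SE), 450-fold (limma adjusted p = 2.54e-10). It was 8.96 within the JK arrays and 8.50 within the others. A further probe set of Prkg2 rose by 4.06. Of its measured neighbours on chromosome 5, Fgf5 differed by -0.07 and Hnrnpd by 0.20, neither called, while Antxr2, a receptor for collagen VI fragments and anthrax toxin, rose by 2.15 (limma adjusted p = 5.13e-07). Genes around the kinase did not share the size of its rise.

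Genes of cyclic nucleotide signalling, the pathways of cAMP and cGMP, moved both ways. Of 21 measured, Prkg2 included, 5 rose and 8 fell (23.8% and 38.1%, against 22.8% and 28.2% of all genes). Npr2, the receptor whose guanylate cyclase makes cGMP in response to C-type natriuretic peptide, read 7.76, 8.34, 7.97, 8.46 and 7.998 in tumours and 9.75, 10.08 and 10.29 in the lowest, median and highest pool, a fall of 1.95 ± 0.14 (SE) with no overlap (limma adjusted p = 5.35e-07). Its ligand gene Nppc fell by 2.19 (limma adjusted p = 1.63e-05), from pools at 7.07 to 8.67 to tumours at 5.37 to 5.86. Nppb, which encodes a ligand of the other guanylate cyclase receptor, ran the opposite way, at 10.06, 8.83, 7.97, 11.59 and 7.62 in tumours and 4.68 to 5.48 in pools, and rose by 4.16 ± 0.59 (SE) (limma adjusted p = 9.22e-05), a call lost among arrays without JK. So the kinase and the B-type peptide rose while the C-type peptide and its receptor fell. Nppb was also the more variable of these genes, with a span of nearly 4 among tumours.

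Braf, which encodes the kinase at the top of the MAPK cascade, read 11.98, 11.62, 10.83, 10.29 and 11.84 in tumours and 5.95, 6.21 and 6.67 in the lowest, median and highest pool. The groups did not overlap, and the difference was 5.06 ± 0.29 (SE), 33.4-fold (limma adjusted p = 1.06e-07). Among its measured neighbours on chromosome 6, Ndufb2, a complex I subunit, fell by 1.28 (limma adjusted p = 3.22e-05), Mrps33 fell by 0.35 (limma adjusted p = 0.012), and Slc37a3 differed by -0.01 and Mkrn1 by -0.44, not called. None of the 6 neighbours rose. The labels do not say whether the probe set can also read an engineered Braf transcript.

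Genes that follow MAPK activity, among them feedback phosphatases and immediate targets of the cascade, were higher in tumours in most cases. Of 17 measured, 14 rose and 1 fell, with a median difference of 1.77. The mean difference of the list from the pools' mean was nearly the same on every tumour, 1.62 to 1.82, and lay at -0.18 to 0.25 in the pools. Dusp6, a phosphatase that switches off ERK, read 11.95, 11.81, 12.66, 12.25 and 12.23 in tumours and 9.83, 10.18 and 10.38 in pools, again lowest, median and highest. It rose by 2.03 ± 0.15 (SE), with no overlap (limma adjusted p = 7.61e-07). Fosl1, an AP-1 transcription factor subunit, rose by 3.50 ± 0.13 (SE) (limma adjusted p = 6.33e-09), from pools at 5.10 to 5.51 to tumours at 8.44 to 9.13. Its other probe set rose by 1.20, so the size depends on the probe set used. Lif, a cytokine of the interleukin-6 family, rose by 3.89 (limma adjusted p = 1.16e-07), though a further probe set gave 0.47. Ier3, an early response gene, rose by 3.75 (limma adjusted p = 1.08e-06). Spry1, a feedback inhibitor of receptor tyrosine kinases, was the member that fell, by 0.52 (limma adjusted p = 0.00318), and its fall was not called among the arrays without JK.

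Within the AP-1 and early genes, 12 of 19 rose and 2 fell, and the subunits named here moved both ways. Junb read 10.21, 9.52, 10.13, 9.91 and 10.48 in tumours and 6.53, 6.99 and 8.48 in the lowest, median and highest pool, a rise of 2.93 ± 0.31 (SE) (limma adjusted p = 9.55e-06). Fosb rose by 3.02 (limma adjusted p = 1.04e-05), from pools at 4.14 to 5.20 to tumours at 6.73 to 8.76. Jun itself fell by 1.07 ± 0.19 (SE) with no overlap (limma adjusted p = 0.000486), at 8.58 to 9.68 in tumours and 9.80 to 10.44 in pools. Myc, a growth-promoting transcription factor, rose by 2.65 ± 0.19 (SE) (limma adjusted p = 5.17e-07) and read 10.33, 9.78, 10.64, 10.32 and 10.75 in tumours.

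Several ligands of the EGF receptor rose. Ereg, which encodes epiregulin, read 10.23, 10.19, 10.15, 11.72 and 10.41 in tumours and 3.78, 4.37 and 7.20 in the lowest, median and highest pool, a rise of 5.81 ± 0.55 (SE), 56-fold (limma adjusted p = 4.37e-06). The highest pool was pool 5, and tumour 4 was the highest tumour. Hbegf, the heparin-binding ligand, rose by 3.25 (limma adjusted p = 1.57e-07) and Btc, betacellulin, by 2.64 (limma adjusted p = 8.9e-06). Egfr differed by -0.40 ± 0.13 (SE) with overlapping groups (limma adjusted p = 0.025), a call lost among arrays without JK, with a bare-number block, without any of 5 arrays (pools 1, 2 and 4 and tumours 3 and 5), and with the mean of probe sets, where the difference was -0.02. Its 4 other probe sets gave 0.42, 0.11, -0.11 and -0.15. Of the 10 measured members of the list, 5 rose and 1 fell.

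Met, the receptor of hepatocyte growth factor, and its ligand gene Hgf are named in the title of the study. Met read 5.48, 5.10, 6.15, 5.44 and 5.90 in tumours and 4.96, 5.14 and 5.34 in the lowest, median and highest pool, with overlap, and differed by 0.47 ± 0.17 (SE) (limma adjusted p = 0.0342). That call did not last: it was lost in both title series, with either block, in the fit of all 24 arrays and without pool 1, 3 or 4 or tumour 3 or 5. Hgf read 5.25 to 5.75 in tumours and 4.90 to 5.60 in pools, and its difference of 0.21 ± 0.16 (SE) was not called (limma adjusted p = 0.305). Around the receptor, 5 of 12 members rose and 5 fell. The largest rises in that list were those of Plat and Plau, described with the matrix proteases. Hgfac, which encodes a protease that activates the ligand, rose by 2.77 (limma adjusted p = 0.00038), a call lost among arrays without JK (limma adjusted p = 0.0559). Hpn, another such protease, fell by 1.44 (limma adjusted p = 0.000112).

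The genes of hormone synthesis were lower in tumours. Of 12 measured, 7 fell and 0 rose, with a median difference of -1.17, and among JK arrays 2 rose beside 7 that fell. The list's mean lay -3.31 to -1.70 from the pools' mean in tumours, with tumour 4 nearest to normal, and -0.11 to 0.14 in the pools. Tg, which encodes thyroglobulin, read 5.98, 5.29, 4.46, 13.48 and 5.51 in tumours against 14.80, 14.88 and 14.96 in the lowest, median and highest pool. Tumours 1, 2, 3 and 5 were at or below 5.98, and tumour 4 was at 13.48, still below every pool. The difference was -7.94 ± 1.30 (SE) (limma adjusted p = 0.000277), -9.25 in the JK arrays and -7.07 in the others, where tumour 4 is 1 of 3 tumours and the call was lost (limma adjusted p = 0.119). In the pools, labelled as thyroid, this defining transcript was near the top of the scale, which RMA flattens.

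The same tumour carried more of other hormone genes. Iyd, the deiodinase that recycles iodide, read 5.52, 5.32, 4.56, 9.995 and 4.83 in tumours and 13.24 to 13.42 in pools, and fell by 7.27 ± 0.79 (SE) (limma adjusted p = 1.2e-05). Dio1, which converts the prohormone to active hormone, read 4.58, 4.30, 4.31, 7.90 and 4.38 and 11.96 to 13.04, and fell by 7.38 ± 0.58 (SE) (limma adjusted p = 1.05e-06). Tshr, the receptor of thyrotropin, fell by 3.71 ± 0.34 (SE) (limma adjusted p = 3.03e-06), with tumour 4 highest among tumours at 6.15 and the others at 4.81 to 5.09. A further Tshr probe set fell by only 0.43. In all 4 genes tumour 4 lay between the other tumours and the pools.

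Slc5a8, an apical transporter of short acids, did not follow that order. It read 4.42, 6.73, 4.32, 5.19 and 4.47 in tumours, highest in tumour 2, and fell by 4.98 ± 0.40 (SE) from pools at 9.21 to 10.50 (limma adjusted p = 1.31e-06). Slc5a5, the sodium iodide symporter, fell by a smaller step, 0.77 ± 0.15 (SE) (limma adjusted p = 0.000792), from pools at 7.06 to 7.63 to tumours at 6.27 to 6.78. Its pool values lay near the array medians of 7.47 to 7.58, so how much of its transcript was kept cannot be read from this step. Duoxa2, which matures the enzyme that supplies hydrogen peroxide, fell by 1.57 (limma adjusted p = 2.5e-05).

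Of the thyroid transcription factors, 3 of 4 measured fell and 0 rose. Pax8 read 6.47, 6.74, 5.78, 7.23 and 5.75 in tumours and 11.12, 11.47 and 11.98 in the lowest, median and highest pool, a fall of 5.10 ± 0.26 (SE) with no overlap, 34.4-fold (limma adjusted p = 5.08e-08). Tumour 4 was the highest here too, by less than 1. Hhex fell by 1.71 ± 0.26 (SE) (limma adjusted p = 0.000136), and its tumour values of 8.55, 9.18, 10.24, 8.91 and 9.30 varied in a different order. Nkx2-1 fell by 0.66 ± 0.15 (SE) (limma adjusted p = 0.00282), from pools at 6.11 to 6.68 to tumours at 5.26 to 6.10, and was not called among arrays without JK. Even in the pools Nkx2-1 read below the array medians of 7.47 to 7.58, so how much of its transcript was kept cannot be read from this step. The list mean of the 4 factors was alike in all tumours, -2.04 to -1.83.

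Besides the hormone genes, large falls were found in other transporters, enzymes and receptors, whose cells of origin bulk RNA does not show. Slc4a5, a sodium bicarbonate cotransporter, read 4.94, 5.23, 4.53, 7.07 and 4.66 in tumours and 11.77 to 12.13 in pools, and fell by 6.65 ± 0.37 (SE) (limma adjusted p = 1.01e-07). Folr1, the folate receptor, fell by 6.19 (limma adjusted p = 7.2e-08) and Chdh, choline dehydrogenase, by 6.13 (limma adjusted p = 1.65e-07). Ces1d, a carboxylesterase with close relatives in the genome whose transcripts its probes may share, fell by 6.48 (limma adjusted p = 4.37e-05) with tumours at 5.26, 9.40, 3.68, 8.20 and 5.28. Ager, the receptor for glycation end products, fell by 4.98 ± 0.24 (SE) (limma adjusted p = 2.88e-08). Sox2, a stem cell and airway transcription factor, went the other way, from 4.05, 4.25 and 6.42 in the lowest, median and highest pool to 10.46, 10.74, 9.01, 11.26 and 10.55, and rose by 5.70 ± 0.47 (SE) (limma adjusted p = 1.42e-06).

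**Figure D2:**
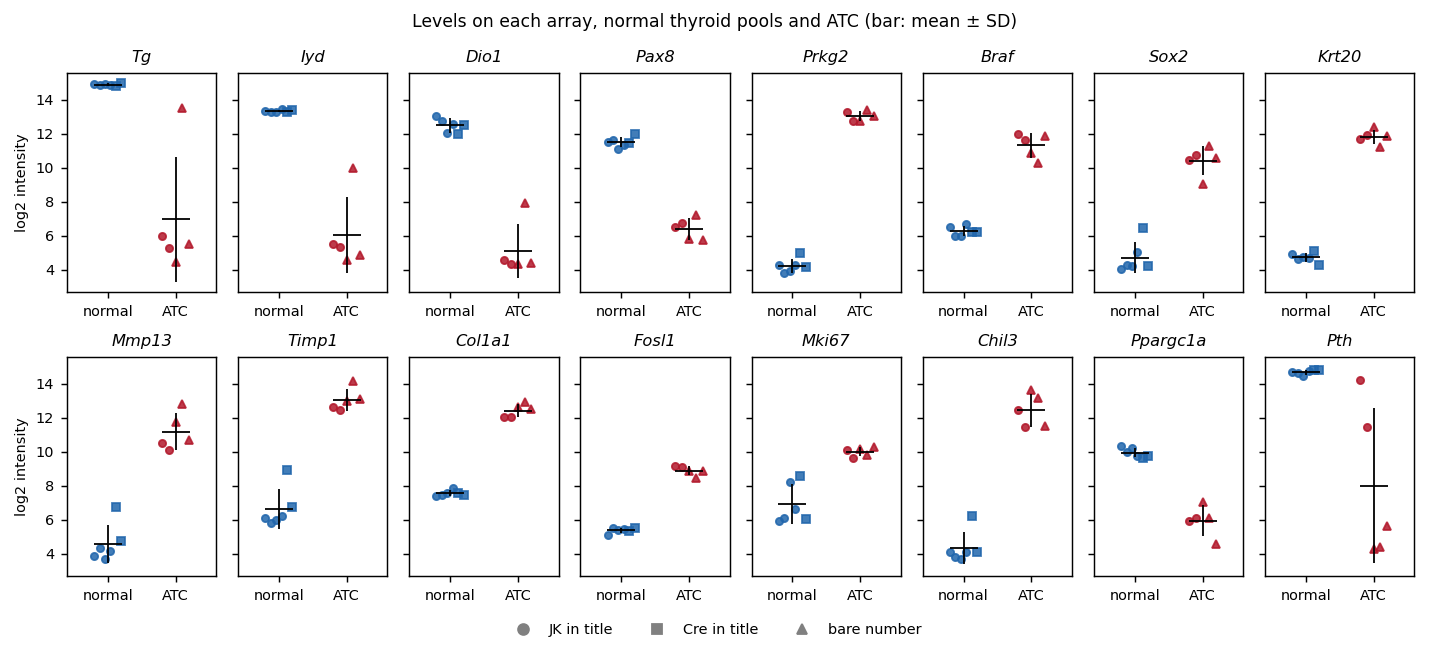
Levels (log2 intensity, vertical axis) of 16 genes on each of the 6 pools (blue) and 5 tumours (red). Marker shapes give the kind of title, and bars show mean ± SD. Tumour 4 stands above the other tumours for Tg at 13.48 and Iyd at 9.995, tumours 1 and 2 stand above the other tumours for Pth, and pool 5 stands above the other pools for Timp1 and Chil3.

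Junction and adhesion genes of epithelia fell in part. Of 26 measured, 11 fell and 1 rose, with a median difference of -0.78, and in the fit of all 24 arrays 5 fell. The list mean was -2.20 on tumour 4 and -0.97 to -0.68 on the others. Cldn8, a tight junction claudin, read 5.49, 7.15, 4.43, 5.62 and 4.74 in tumours and 10.42, 10.67 and 10.90 in the lowest, median and highest pool, a fall of 5.16 ± 0.38 (SE) (limma adjusted p = 6.7e-07). Cdh16, a kidney and thyroid cadherin, fell by 4.13 (limma adjusted p = 1.75e-05), with tumour 1 highest among tumours at 10.45. Prss8, an epithelial membrane protease, fell by 3.24 (limma adjusted p = 7.01e-07) and Tjp3, a tight junction scaffold, by 2.85 (limma adjusted p = 4.54e-05). Jup, plakoglobin, was the member that rose, by 0.48 ± 0.13 (SE) (limma adjusted p = 0.00741), with groups that overlap and a call that neither the fit of all 24 arrays nor the arrays without JK kept.

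General markers of epithelial cells were lowest in tumour 4. Cdh1, E-cadherin, read 12.32, 12.51, 12.62, 10.94 and 12.51 in tumours and 11.94, 12.15 and 12.57 in the lowest, median and highest pool. Tumour 4 was below every pool and the other tumours lay within or just above the pools' range. The difference was -0.01 ± 0.27 (SE) and not called (limma adjusted p = 0.987). Without tumour 4 it was 0.305 (limma adjusted p = 0.0723). Epcam, a surface marker of epithelia, read 12.76, 12.47, 12.77, 10.57 and 12.82 and 12.65 to 12.89, with tumour 4 far below the others and tumour 2 also below every pool, and was not called (limma adjusted p = 0.221).

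Keratins moved up rather than down. Of 16 measured, 8 rose and 0 fell, with a median of 1.33, and of the 12 measured genes of the cornified envelope, the cross-linked shell of squamous cells, 6 rose and 0 fell. Among arrays without JK 4 keratins rose. There and in the fit of all 24 arrays, 3 of the cornified envelope rose. Krt20, a keratin of gut and bladder lining, read 11.69, 11.92, 12.38, 11.22 and 11.87 in tumours and 4.26, 4.71 and 5.08 in the lowest, median and highest pool, a rise of 7.10 ± 0.20 (SE), 137-fold (limma adjusted p = 6.36e-10). Krt6a, a keratin of wounded and rapidly dividing skin, read 12.39, 10.91, 9.53, 9.87 and 11.10 and 4.86 to 5.57, a rise of 5.61 (limma adjusted p = 6.95e-07), while its other probe sets gave 2.75 and 1.70. Krt14, a keratin of basal epithelial cells, rose by 4.36 (limma adjusted p = 4.02e-05), highest on tumours 1 and 5 at 12.13 and 12.29, and lost its call among arrays without JK.

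Simple keratins, present in normal thyroid, rose less. Krt18 read 13.80, 13.71, 13.93, 13.10 and 13.93 in tumours and 11.10, 11.42 and 12.71 in the lowest, median and highest pool, a rise of 2.12 ± 0.27 (SE) (limma adjusted p = 3.69e-05). Its partner Krt8 rose by 1.38 (limma adjusted p = 0.00412) with overlap, since pool 5 at 13.92 was above tumour 4 at 13.14. Neither was called among the arrays without JK. Over the keratin list tumour 4 had the lowest mean of the tumours, 0.77, against 1.79 to 3.40 on the others.

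Sprr1a, a small proline-rich protein of the envelope, read 11.88, 11.70, 12.62, 9.92 and 11.79 in tumours and 5.31, 6.25 and 7.45 in the lowest, median and highest pool, and rose by 5.40 ± 0.47 (SE) (limma adjusted p = 2.15e-06). Ivl, involucrin, rose by 4.15 ± 0.36 (SE) (limma adjusted p = 2.04e-06), from pools at 5.23 to 5.65 to tumours at 8.25 to 10.96. Tumour 4 was the lowest tumour and tumour 3 the highest for both. The Sprr family has close relatives, and probes may share their transcripts.

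Mesenchymal genes rose in nearly all cases, 18 of 20 with 0 falling and a median of 1.69, and the list mean was highest on tumour 4 at 2.52 against 1.64 to 2.06 on the others. Fn1, fibronectin, read 13.62, 13.78, 14.11, 14.41 and 14.13 in tumours and 9.28, 9.83 and 10.75 in the lowest, median and highest pool, a rise of 4.02 ± 0.25 (SE) (limma adjusted p = 1.81e-07). Cdh11, a cadherin of mesenchymal cells, rose by 4.33 ± 0.41 (SE) (limma adjusted p = 4.41e-06) and read 9.95, 10.12, 11.39, 11.96 and 11.71. Vim, vimentin, rose by 1.80 (limma adjusted p = 5.62e-05). Tumours 3, 4 and 5 were above tumours 1 and 2 for all of these.

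Most collagens rose. Of 23 measured, 18 rose and 4 fell, with a median of 1.68. Col1a1, the main chain of fibrillar collagen, read 12.01, 12.02, 12.60, 12.93 and 12.53 in tumours and 7.36, 7.51 and 7.88 in the lowest, median and highest pool, and rose by 4.87 ± 0.17 (SE), 29.3-fold (limma adjusted p = 4.27e-09). Col5a2, a fibril regulator, rose by 3.54 (limma adjusted p = 7.4e-08) and Col8a1, a short-chain network collagen, by 3.81 (limma adjusted p = 2.39e-06), with tumour 4 at 12.76 and the others at 10.72 to 11.23. Col4a6, a chain of basement membranes, fell by 3.36 ± 0.15 (SE) with no overlap (limma adjusted p = 1.81e-08), from pools at 8.99 to 9.70 to tumours at 5.64 to 6.11, and its other probe set fell by 2.16. Among the fibroblast markers, Col1a1, Col1a2 and Col3a1 rose with no overlap, while Dcn, decorin, differed by -0.55 and Pdgfra by 0.47, both called with groups that overlap. Collagen cross-linking genes rose for 9 of 14 measured and fell for 0. Lox, lysyl oxidase, rose by 4.28 (limma adjusted p = 5.7e-07), and its other probe sets rose by 4.07 and 0.79.

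Matrix proteases and their inhibitors had the largest median of all the lists described, 2.94, with 18 of 24 up and 3 down. Mmp13, a collagenase, read 10.49, 10.11, 11.74, 12.79 and 10.71 in tumours and 3.68, 4.24 and 6.72 in the lowest, median and highest pool. The highest pool was pool 5, and the gap to the lowest tumour was over 3. The rise was 6.59 ± 0.58 (SE), 96.4-fold (limma adjusted p = 2.53e-06). Timp1, an inhibitor of such enzymes, read 12.61, 12.42, 12.97, 14.14 and 13.09 and rose by 6.42 ± 0.52 (SE) (limma adjusted p = 1.33e-06), with pool 5 at 8.93 and the other pools at 5.79 to 6.73. Timp3, another inhibitor, fell by 1.43 (limma adjusted p = 0.00266) with overlapping groups, and lost its call among arrays without JK.

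Plat and Plau, which activate plasminogen to the protease plasmin, rose by 4.28 (limma adjusted p = 1.76e-07) and 3.64 (limma adjusted p = 3.0e-06). Plaur, the urokinase receptor, read 11.12, 11.24, 11.85, 10.22 and 11.75 in tumours and 6.22, 6.42 and 7.55 in the lowest, median and highest pool, a rise of 4.54 ± 0.33 (SE) (limma adjusted p = 5.86e-07). Serpinb2, an inhibitor of the activators, read 11.39, 10.28, 11.68, 11.15 and 11.73 in tumours and 9.07 in pool 5 against 3.58 to 4.95 in the other pools, a rise of 6.16 ± 0.81 (SE) (limma adjusted p = 5.5e-05). In the list as a whole, pool 5 lay 0.96 above the pools' mean, and tumours lay 2.17 to 2.76 above it.

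The promoters of 5 of the protease and envelope genes are shown to print the AP-1 letters TGANTCA where they occur, and these 5 were picked for holding them. The sequences are RefSeq's for the mouse assembly GRCm38.p6, read 5′ to 3′ on the strand of the gene and upstream of its start. They are chr9:7272454-7272513 (plus strand), chr7:24462383-24462442 (plus), chr1:107511303-107511362 (plus), chr3:92485982-92486041 (minus) and chr3:92573816-92573875 (minus), and capitals mark the match.
Mmp13: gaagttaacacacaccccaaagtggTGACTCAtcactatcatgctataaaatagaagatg
Plaur: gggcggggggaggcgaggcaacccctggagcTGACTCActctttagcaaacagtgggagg
Serpinb2: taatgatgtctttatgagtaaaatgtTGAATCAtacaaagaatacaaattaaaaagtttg
Sprr1a: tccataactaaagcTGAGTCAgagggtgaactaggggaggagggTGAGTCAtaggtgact
Ivl: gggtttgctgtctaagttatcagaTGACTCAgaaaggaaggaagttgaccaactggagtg

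The Mmp13 match ends 29 bases before the start and the Sprr1a stretch holds 2 matches. Over the 9888 genes of the array with a promoter window, from 250 bases before the start to 50 after it, 6.27% held TGANTCA on either strand. The share was 14.7% of 374 windows of genes called higher by over 2 on the log2 scale and 15 of 300 windows of genes called lower by over 2. It was 83.3% of the 12 windows of the cornified envelope list, several of which belong to 1 gene family, and 35.3% of the 17 windows of the matrix protease list. It was 33.3% of 9 windows in the interleukin-6 family and 27.3% of 22 in the interferon-induced list, most of whose members fell. Several lists that rose had few or none, with 0 of 11 for mesenchymal genes, 0 of 17 for TGF-beta and activin and 1 of 18 for collagens. In the AP-1 and early gene list itself it was 0 of 15. A match is a description of the letters, not a site.

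TGF-beta and activin genes rose for 14 of 24 measured and fell for 2, with a median of 1.40. Inhba, the activin A chain, read 11.18, 10.81, 11.41, 12.63 and 12.34 in tumours and 6.74, 7.15 and 8.11 in the lowest, median and highest pool, a rise of 4.47 ± 0.34 (SE) (limma adjusted p = 8.21e-07). Its antagonist Fst, follistatin, rose too, by 2.89 (limma adjusted p = 3.9e-05), but least on tumour 4, which had 7.77 against 9.44 to 10.27. Tgfb1 rose by 2.78 ± 0.19 (SE) (limma adjusted p = 3.24e-07) and Bmp2, a bone morphogenetic protein, by 4.07 (limma adjusted p = 1.1e-06). The list mean was 0.85 and 0.97 on tumours 1 and 2 and 1.34 to 1.55 on the others. Integrins, the receptors of matrix, rose for 8 of 15 measured and fell for 2. Itga5, the fibronectin receptor chain, rose by 2.22 ± 0.20 (SE) (limma adjusted p = 2.73e-06), and its other probe set by 0.31.

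Retinoid genes rose for 8 of 15 measured and fell for 2. Aldh1a2, which makes retinoic acid, rose evenly, with tumours at 10.54, 10.55, 10.59, 10.36 and 10.97 and pools at 5.98, 6.29 and 6.52 for the lowest, median and highest, a difference of 4.35 ± 0.13 (SE) (limma adjusted p = 1.05e-09). Aldh1a3, an enzyme of the same step, rose by 3.86 (limma adjusted p = 4.32e-05) and Crabp2, a carrier of retinoic acid to the nucleus, by 3.89 (limma adjusted p = 3.23e-06). Lrat, which stores retinol as esters, fell by 2.88 ± 0.29 (SE) (limma adjusted p = 5.81e-06), from pools at 5.76 to 7.29 to tumours at 3.15 to 4.26.

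Mitotic genes rose almost without exception, 42 of 44 with 0 falling and a median of 2.09. The list mean lay 1.64 to 2.42 above the pools' mean in tumours, and 0.35 and 0.61 above it in pools 3 and 5. Mki67, the proliferation marker, read 10.09, 9.63, 10.15, 9.82 and 10.27 in tumours, while pools 3 and 5 had 8.23 and 8.56 and the other pools 5.91 to 6.60. It rose by 3.08 ± 0.48 (SE) (limma adjusted p = 0.000184). Birc5, survivin, read 9.39, 8.96, 9.07, 8.44 and 9.45 and rose by 3.87 ± 0.41 (SE) (limma adjusted p = 9.97e-06). Bub1, a spindle checkpoint kinase, rose by 3.77 (limma adjusted p = 7.16e-06) and its other probe set by 0.65. Top2a, the topoisomerase that separates chromosomes, rose by 3.40 (limma adjusted p = 2.46e-05), while another of its probe sets differed by -0.19 and was not called.

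Cdk1, the kinase that drives entry into mitosis, read 9.52, 8.96, 9.99, 9.41 and 10.10 in tumours and 5.28, 6.01 and 7.0 in the lowest, median and highest pool, a rise of 3.48 ± 0.31 (SE) (limma adjusted p = 2.95e-06). Ccnb2, a cyclin B, rose by 2.35 ± 0.35 (SE) (limma adjusted p = 0.000146), with tumours at 7.73, 7.21, 8.04, 8.06 and 8.45 and pools at 4.76 to 6.60. Pools 3 and 5 were the highest pools for both. Their promoters are shown because mitotic genes are known for a cell cycle element, CHR, with the letters TTTGAAA, and for CCAAT boxes. The stretches are chr10:69352913-69353012 and chr9:70421555-70421654 (both minus strand, RefSeq, GRCm38.p6), 5′ to 3′, with capitals for CHR and for CCAAT or its complement ATTGG.
Cdk1: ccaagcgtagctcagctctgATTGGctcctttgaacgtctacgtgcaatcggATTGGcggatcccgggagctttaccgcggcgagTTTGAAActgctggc
Ccnb2: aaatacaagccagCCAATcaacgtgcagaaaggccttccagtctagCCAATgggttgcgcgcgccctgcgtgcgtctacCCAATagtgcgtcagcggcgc

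The Cdk1 stretch holds 1 CHR match and 2 CCAAT matches, and the Ccnb2 stretch 3 CCAAT matches. Of the 37 promoter windows of mitotic genes, 73.0% held CCAAT and 32.4% held TTTGAAA on either strand, against 38.1% and 4.62% of all 9888 windows. For 32 windows of replication genes these shares were 56.2% and 6.25%. There, the E2F letters GCGGGAA were found in 37.5% of windows, against 7.29% of all and 1 of the 37 mitotic windows. CCAAT reached shares near or above the mitotic one in other lists, in 17 of 20 windows of cholesterol and fatty acid synthesis, 80.0% of 25 of endoplasmic reticulum folding and 70.0% of 10 of class I presentation, and TTTGAAA in 30.0% of 10 windows of alternative macrophage activation. In the mitotic and replication lists 0 windows held TGANTCA. The other motifs counted over all windows were NKX2-1, CAAGTG, in 11.7%, ETS, CCGGAAG, in 1485 windows, and a nuclear receptor site, AAGGTCA, in 3.53%. CAAGTG was in 2 of 9 windows of hormone synthesis genes, and no order can be read from so few.

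**Figure D3:**
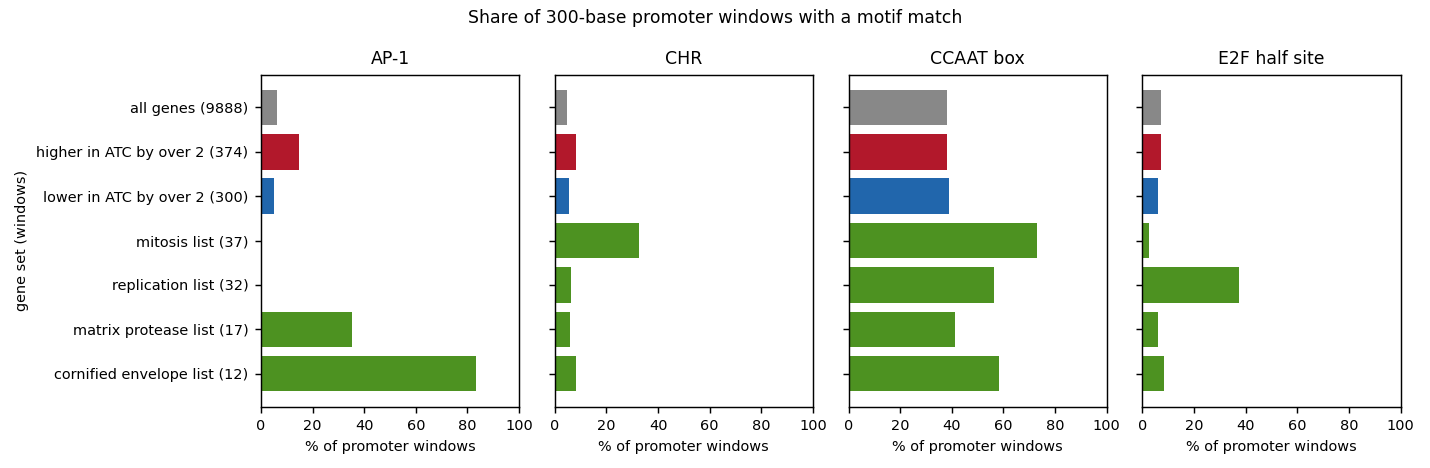
Share (%) of promoter windows with a match to each of 4 motifs, for all genes, genes called higher or lower by over 2 on the log2 scale, and 4 gene lists, with the number of windows in brackets. Among the sets drawn, AP-1 letters are highest in the cornified envelope list (83.3%), CHR and CCAAT in the mitosis list (32.4% and 73.0%) and E2F letters in the replication list (37.5%), while CCAAT was higher in a list not drawn, cholesterol and fatty acid synthesis (17 of 20).

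Replication and nucleotide synthesis genes rose less, 26 of 37 with 2 falling and a median of 0.72. Rrm2, a subunit of the enzyme that makes deoxynucleotides, read 10.45, 9.43, 9.75, 9.31 and 10.10 in tumours and 5.04, 5.82 and 7.73 in the lowest, median and highest pool, and rose by 3.51 ± 0.47 (SE) (limma adjusted p = 6.17e-05). Cdc45, a helicase factor, rose by 2.03 ± 0.13 (SE) (limma adjusted p = 2.6e-07), with pools within 5.81 to 5.99, and Mcm5, a helicase subunit, by 2.04 (limma adjusted p = 0.000183). Pool 3 was not above other pools for Cdc45 as it was for Mki67.

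Regulators of G1, the phase before replication, moved both ways, 10 up and 7 down of 23. Ccnd1, cyclin D1, rose by 2.94 ± 0.28 (SE) (limma adjusted p = 4.73e-06) while Ccnd2, cyclin D2, fell by 1.93 ± 0.17 (SE) (limma adjusted p = 2.31e-06). Cyclin D1 read 13.01, 12.75, 12.27, 11.81 and 12.40 in tumours and 8.81 to 10.52 in pools, and cyclin D2 9.79, 10.54, 10.04, 10.75 and 10.36 and 12.05 to 12.58. The inhibitors Cdkn2a and Cdkn2b, which block the kinases of cyclin D, rose by 3.21 (limma adjusted p = 1.84e-07) and 3.06 (limma adjusted p = 2.83e-07). Both thus rose in the same tumours as cyclin D1.

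Targets of the tumour suppressor p53 moved both ways. Of 17 measured, 2 rose and 6 fell (11.8% and 35.3%, against 22.8% and 28.2% of all genes), with a median of -0.20. List means were 0.03 to 0.24 on the tumours, above 0, with 1 large rise among the members. The pools ran from -0.16 to 0.39, and pool 5, the highest, lay above every tumour. In the fit of all 24 arrays 2 fell. Pmaip1, the death-promoting protein Noxa, read 10.99, 10.77, 11.26, 10.52 and 11.04 in tumours, 8.33 in pool 5 and 4.61 to 4.97 in the other pools, and rose by 5.53 ± 0.58 (SE) (limma adjusted p = 9.21e-06). Cdkn1a, the inhibitor p21, rose by 1.38 ± 0.38 (SE) with overlap (limma adjusted p = 0.00935), and by 0.09 without a call among arrays without JK. Sesn1 and Sesn2, stress sensors, fell by 1.596 (limma adjusted p = 1.99e-05) and 1.11 (limma adjusted p = 1.71e-05) with no overlap.

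Mitochondrial genes fell together. Of 33 measured subunits and factors of respiratory chain complex I, 31 fell and 0 rose, with a median of -0.93, and of 41 from complexes II to V, 39 fell and 0 rose, with a median of -0.76. Among arrays without JK, 20 and 16 fell. Complex I means on the tumours were close to each other, -1.06 to -0.91, and lay -0.29 to 0.12 in the pools. Ndufa1, a complex I subunit, read 11.98, 11.95, 12.04, 12.29 and 12.06 in tumours and 13.48, 13.74 and 13.80 in the lowest, median and highest pool, a fall of 1.64 ± 0.09 (SE) (limma adjusted p = 1.16e-07). Ndufb8 fell by 1.43 ± 0.08 (SE) (limma adjusted p = 1.16e-07), with all tumours within 11.38 to 11.55. Sdha, of complex II, fell by 1.44 (limma adjusted p = 2.12e-05), from 12.33 to 12.42 in 5 pools and 11.47 in pool 5. In each of these lists 2 members were shown to fall by more than 2-fold.

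Cox7a1, a cytochrome oxidase subunit of muscle and brown fat, fell further, by 3.51 ± 0.40 (SE) (limma adjusted p = 1.67e-05). Ppargc1a, a coactivator that drives mitochondrial genes, read 5.91, 6.11, 7.04, 6.07 and 4.54 in tumours and 9.65, 9.85 and 10.33 in the lowest, median and highest pool, a fall of 4.0 ± 0.34 (SE) (limma adjusted p = 1.95e-06). Of the citric acid cycle 16 of 19 fell and 0 rose, 5 of them among arrays without JK. Pcx, pyruvate carboxylase, fell by 2.93 (limma adjusted p = 1.05e-06). Of fatty acid oxidation 20 of 21 fell and 0 rose, with a median of -1.56, and 10 fell among arrays without JK. Decr1 and Eci1, enzymes for unsaturated fatty acids, fell by 2.004 (limma adjusted p = 1.29e-06) and 2.17 (limma adjusted p = 4.04e-07).

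Fat cell markers fell in the same comparison, and brown fat is rich in mitochondria. Of 20 measured adipocyte genes 19 fell and 0 rose, with a median of -2.41 (12 fell in the fit of all 24 arrays and 8 among arrays without JK). Adipoq, adiponectin, read 8.04, 7.61, 3.18, 6.38 and 8.79 in tumours and 10.81, 12.39 and 12.87 in the lowest, median and highest pool, and fell by 5.42 ± 0.83 (SE) (limma adjusted p = 0.000177), a call lost among arrays without JK (limma adjusted p = 0.0662). Ucp1, which defines brown fat, read 4.39 to 4.65 in tumours, 10.86 to 12.18 in 5 pools and 5.60 in pool 5, and fell by 5.92 ± 0.95 (SE) (limma adjusted p = 0.000243), not called among arrays without JK. Thrsp, a lipid synthesis factor of fat, fell by 5.60 (limma adjusted p = 1.27e-06) and Scd1, a fatty acid desaturase, by 4.75 (limma adjusted p = 1.55e-06). Over the adipocyte list the tumours lay -3.18 to -2.28 from the pools' mean, pool 5 -1.59 and the other pools 0.23 to 0.39.

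Pool 5, with little of the brown fat marker, also had lower mitochondrial means than the other pools, yet not as low as the tumours. Its fatty acid oxidation mean was -0.75 against -1.68 to -1.40 in tumours, and its complex I mean -0.29 against -1.06 to -0.91. Pool 5 was the lowest pool for Ndufa1 at 13.48, Sdha at 11.47, Cox7a1 at 9.43 and Eci1 at 10.69. Ndufb8 differed from these, with pool 5 at 12.91, within the range of the other pools, which was 12.73 to 13.00. The part of fat tissue in the fall of mitochondrial genes was not tested.

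Glycolysis and lactate genes rose for 10 of 19 measured and fell for 2, with a median of 0.32. In the fit of all 24 arrays 3 rose, and 2 did among arrays without JK. Slc16a1, a lactate transporter, rose by 1.78 ± 0.30 (SE) (limma adjusted p = 0.000311), from pools at 8.15 to 10.22 to tumours at 10.92 to 11.45. Hk2, a hexokinase, rose by 0.84 (limma adjusted p = 0.000914) and Slc2a1, a glucose transporter, by 0.80 (limma adjusted p = 0.00165), and neither was called in those other fits. Pfkfb3, a stimulator of glycolysis, fell by 1.47 ± 0.18 (SE) (limma adjusted p = 3.03e-05), with -0.12 on its other probe set. Of 18 hypoxia response genes 5 rose and 6 fell (27.8% and 33.3%), near the shares of all genes (22.8% and 28.2%). Vegfa, the vessel growth factor, fell by 1.47 ± 0.25 (SE) (limma adjusted p = 0.000404), from pools at 11.30 to 11.78 to tumours at 9.71, 8.95, 10.52, 10.45 and 10.34.

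Lipid synthesis genes moved both ways. Of 25 measured cholesterol and fatty acid synthesis genes 8 rose and 8 fell, and 5 rose in the fit of all 24 arrays. Sqle and Msmo1, enzymes of the cholesterol branch, rose by 1.97 (limma adjusted p = 5.96e-05) and 2.05 (limma adjusted p = 0.000144), highest on tumour 4 at 10.35 and 11.93. Scd1 of the fatty acid branch fell, as given above.

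Genes of folding and secretion in the endoplasmic reticulum, which serve a gland that exports thyroglobulin, fell for 21 of 30 measured and rose for 1, with a median of -0.76 and 10 falling among arrays without JK. Sdf2l1, an endoplasmic reticulum chaperone cofactor, read 8.45, 8.50, 8.60, 9.52 and 8.30 in tumours and 10.16, 10.71 and 11.89 in the lowest, median and highest pool, a fall of 2.23 ± 0.33 (SE) (limma adjusted p = 0.00013). Dnajb9, a cochaperone, fell by 1.56 (limma adjusted p = 1.6e-05). Tumour 4, which kept the most Tg, was the highest tumour for both, at 9.52 and 10.75, and had the least low list mean, -0.39, against -0.77 to -0.68 on the others. Ribosomal protein genes rose for 15 of 33 measured and fell for 0, by little, with a median of 0.24. Of these 15, 0 were shown to exceed 2-fold, and 3 of the 33 rose among arrays without JK.

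**Figure D4:**
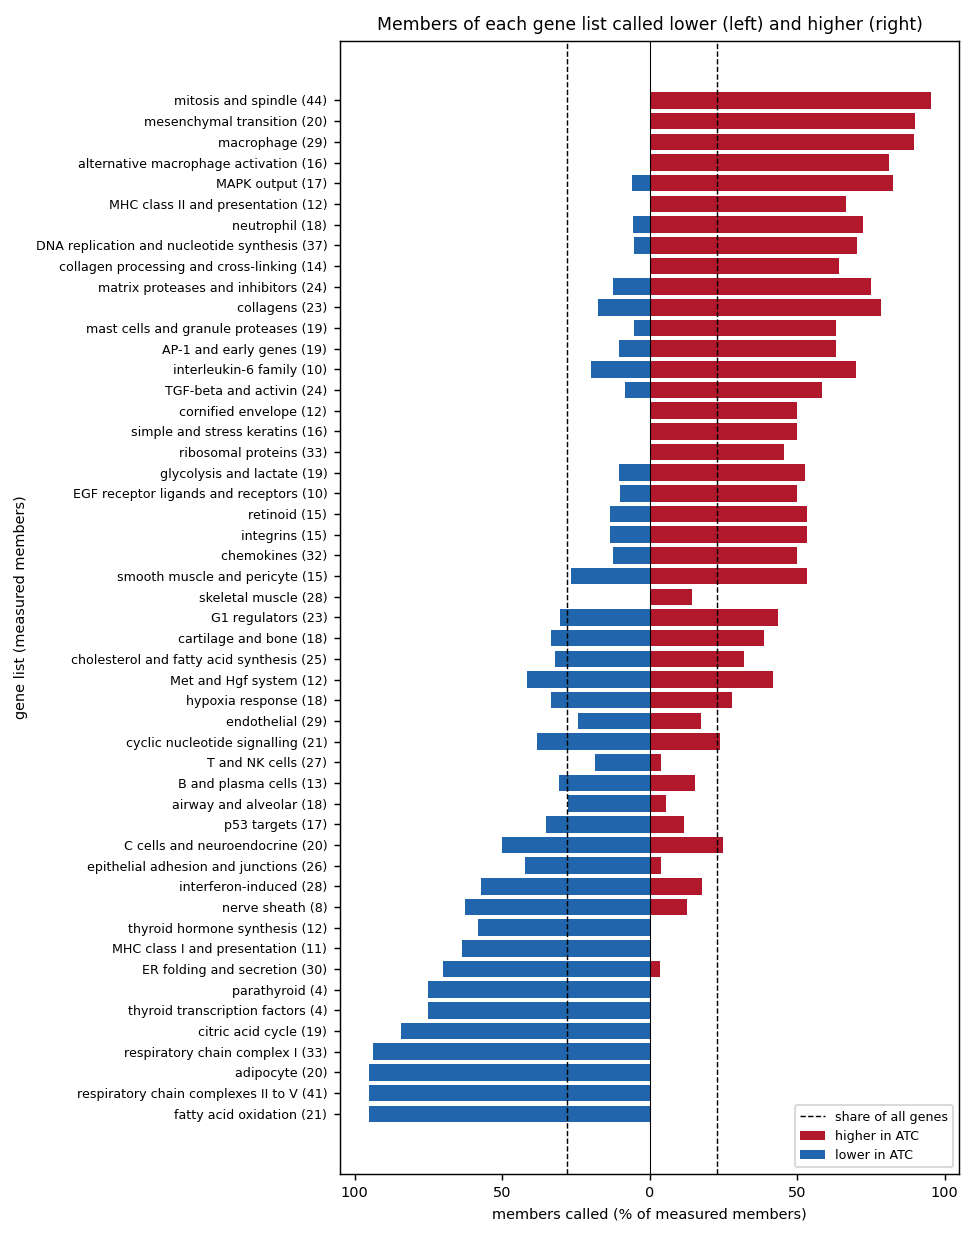
For each gene list (vertical axis, with its number of measured members) the bars give the percentage of members called lower in tumours to the left and higher to the right. Dashed lines mark the shares over all genes, 28.2% lower and 22.8% higher. Mitosis (42 of 44) and mesenchymal genes (18 of 20) stand at the top, and fatty acid oxidation (20 of 21) and respiratory chain genes at the bottom.

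Macrophage genes rose for 26 of 29 measured and fell for 0, with a median of 2.34, and those of alternative activation, a wound-healing state, in 13 of 16 with 0 falling. Chil3, a chitinase-like protein of such macrophages, read 12.45, 11.44, 13.63, 13.14 and 11.53 in tumours and 3.65, 4.09 and 6.19 in the lowest, median and highest pool, a rise of 8.12 ± 0.50 (SE), 277-fold (limma adjusted p = 1.83e-07). Arg1, arginase, read 11.21, 10.92, 12.88, 10.56 and 12.25 and rose by 6.71 ± 0.49 (SE) (limma adjusted p = 6.19e-07). Ear3, an eosinophil-type ribonuclease whose relatives are nearly identical and may share its probes, rose by 7.51 ± 0.33 (SE) (limma adjusted p = 1.81e-08), with all tumours at 11.999 to 12.77. In each of these pool 5 was the highest pool, at 6.19, 6.35 and 6.18.

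General macrophage markers rose by smaller steps. Cd68, a lysosomal marker, read 9.60, 9.31, 10.11, 10.16 and 9.85 in tumours, 9.11 in pool 5 and 6.83 to 7.25 in the other pools, a rise of 2.41 ± 0.36 (SE) (limma adjusted p = 0.000152) that was not called among arrays without JK. C1qa, a complement subunit, rose by 2.40 (limma adjusted p = 2.38e-05), Mrc1, the mannose receptor, by 3.13 (limma adjusted p = 5.79e-07) and Fcgr2b, an inhibitory antibody receptor, by 3.92 (limma adjusted p = 1.89e-06). Csf1r, the receptor that macrophages depend on, rose by 0.96 with overlap (limma adjusted p = 0.00441). Over the macrophage list pool 5 lay 1.33 above the pools' mean, the other pools -0.46 to -0.13 and the tumours 1.83 to 2.39. Among arrays without JK, where pool 5 is 1 of 2 pools, 13 of the 29 macrophage genes and 7 of the 16 alternative activation genes rose. Lgals3, galectin 3, which both macrophages and thyroid tumours make, read 13.64 to 13.99 in tumours, 13.18 in pool 5 and 8.66 to 10.997 in the other pools, a rise of 3.91 ± 0.73 (SE) (limma adjusted p = 0.000711). Among arrays without JK its difference was 1.75 and not called (limma adjusted p = 0.0997).

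Neutrophil genes rose for 13 of 18 measured and fell for 1, with a median of 1.84. S100a8, an abundant neutrophil protein, read 10.95, 10.53, 11.11, 12.86 and 9.29 in tumours and 5.82, 6.09 and 6.34 in the lowest, median and highest pool, a rise of 4.89 ± 0.46 (SE) (limma adjusted p = 4.27e-06), highest on tumour 4 and lowest on tumour 5. Fpr2, a receptor for bacterial peptides, rose by 3.83 ± 0.19 (SE) (limma adjusted p = 4.62e-08) and was even, at 9.03 to 9.57. The receptors Csf3r and Cxcr2, which define neutrophils, rose by 0.50 (limma adjusted p = 0.0143) and 0.57 (limma adjusted p = 0.00186).

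Proteases of mast cell and lymphocyte granules rose for 12 of 19 measured and fell for 1. Mcpt8, a marker of basophils, read 10.68, 11.17, 12.12, 11.08 and 10.77 in tumours and 4.59, 5.11 and 5.49 in the lowest, median and highest pool, a rise of 6.14 ± 0.26 (SE) (limma adjusted p = 1.37e-08). Gzme, a granzyme, read 9.15, 9.70, 12.44, 12.63 and 10.90 and rose by 6.34 ± 0.56 (SE) (limma adjusted p = 2.52e-06), with tumours 3 and 4 about 3 above tumours 1 and 2. Mcpt1, a mast cell protease, rose by 4.26 (limma adjusted p = 3.43e-06). Kit, the receptor that mast cells need and that other cells of the gland may also carry, fell by 2.62 ± 0.20 (SE) (limma adjusted p = 8.73e-07), from pools at 9.501 to 10.03 to tumours at 6.29 to 7.53, and its other probe set fell by 0.55. These protease families have close relatives, so which member the probes read is uncertain.

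Chemokines rose for 16 of 32 measured and fell for 4, with 7 rising among arrays without JK and 2 falling without pool 2 or 3 or tumour 1 or 2. Ccl8 and Ccl6, attractants of monocytes and related cells, rose by 3.95 (limma adjusted p = 4.92e-05) and 3.89 (limma adjusted p = 5.45e-05), and Ccl17, an attractant of helper T cells, by 3.86 (limma adjusted p = 0.000266). Pool 5 was the highest pool for all 3, at 10.19, 11.71 and 8.84, and Ccl6 and Ccl17 were not called among arrays without JK. Cxcl11, an interferon-driven attractant of T cells, fell by 3.01 ± 0.35 (SE) (limma adjusted p = 1.82e-05), with all tumours at 5.12 to 5.26, near the low end of the scale, and -0.42 on its other probe set.

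In the interleukin-6 family 7 of 10 rose and 2 fell. Il6 read 8.37, 7.96, 8.03, 7.80 and 8.92 in tumours and 3.67, 3.86 and 4.19 in the lowest, median and highest pool, a rise of 4.31 ± 0.19 (SE) (limma adjusted p = 1.81e-08). Socs3, which its signal induces, rose by 3.27 (limma adjusted p = 4.96e-06). Lifr, the receptor of the related Lif, fell by 2.25 ± 0.22 (SE) (limma adjusted p = 5.41e-06). Ptgs2, the inducible prostaglandin synthase, rose by 6.16 ± 0.55 (SE) (limma adjusted p = 2.81e-06), with tumours at 10.60, 10.03, 10.51, 12.18 and 10.97, pool 5 at 7.12 and the other pools at 4.03 to 4.34.

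Antigen presentation genes were counted in separate lists for class I and class II, each with other genes of presentation. Of 11 measured in the class I list 7 fell and 0 rose, with a median of -0.76. Of 12 in the class II list 8 rose and 0 fell, with a median of 0.75. The risers there include Itgax, with the largest rise of 2.23, and Cd86, with 1.18, which are not class II chains. H2-Ab1, a class II chain, rose by 1.04 with overlap (limma adjusted p = 0.0128). It was not called in the fit of all 24 arrays or among arrays without JK. The count of rises in the class II list was 3 in the fit of all 24 arrays, 2 with the bare-number block and 1 among arrays without JK. H2-K1, a class I heavy chain, read 11.59, 12.24, 12.06, 12.21 and 12.21 in tumours and 13.01, 13.09 and 13.49 in the lowest, median and highest pool, a fall of 1.08 ± 0.14 (SE) (limma adjusted p = 3.97e-05). Its other probe sets gave -1.01, -0.94 and -0.26. Tap2, a peptide transporter, fell by 1.20 (limma adjusted p = 4.12e-05). B2m, the shared light chain, fell by 0.76 ± 0.24 (SE) with overlap (limma adjusted p = 0.0183), lowest on tumours 1 and 2 at 11.93 and 11.80, and was not called among arrays without JK. H2-DMa, which loads class II, rose by 1.58 ± 0.23 (SE) (limma adjusted p = 0.000134), highest on tumour 4, and was not called among arrays without JK.

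Interferon-induced genes fell for 16 of 28 measured and rose for 5, with a median of -0.67, and 6 fell among arrays without JK. The 5 that rose were 1 without pool 6, 2 without pool 4 or tumour 2 or 3, and 3 without pool 1 or tumour 1 or 5. Iigp1, an immunity GTPase, read 7.62, 8.25, 7.60, 8.13 and 7.91 in tumours and 8.68, 9.87 and 11.13 in the lowest, median and highest pool, a fall of 1.93 ± 0.35 (SE) (limma adjusted p = 0.000543), not called among arrays without JK. Ifit3, an antiviral protein, fell by 1.88 (limma adjusted p = 0.000356). Pool 3 was the highest pool for both, at 11.13 and 9.53.

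Few lymphocyte genes passed the test. Of 27 T and NK cell genes 1 rose and 5 fell, both shares below those of all genes. The 5 falls were 1 with the bare-number block and among arrays without JK, 2 without tumour 3, among JK arrays and in the fit of all 24 arrays, and 8 without tumour 2. Cd3g, a chain of the T cell receptor complex, read 4.95 to 5.14 in tumours, 8.61 and 7.65 in pools 3 and 5 and 5.39 to 6.08 in the other pools. Its fall of 1.53 (limma adjusted p = 0.0222) was not called in either title series, and Cd3d and Cd3e differed by -0.94 and -0.16 without a call. In B and plasma cells 4 of 13 fell and 2 rose (30.8% and 15.4%, against 28.2% and 22.8% of all genes). The falls were 2 without pool 1 or 6 or tumour 3 or 4, among JK arrays and with the bare-number block. Cd79b, of the B cell receptor, fell by 2.28 ± 0.19 (SE) (limma adjusted p = 1.39e-06). Ms4a1 and Cd79a, which define B cells, differed by -0.50 and -0.22 and were not called. Tumour 5 had the highest list mean, 0.85, against -0.61 to -0.12 on the others.

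Endothelial genes were mixed, 5 up and 7 down of 29 (17.2% and 24.1%, both below the shares of all genes). The falls numbered 11 with the title series as a block, 4 without pool 3 or 6 and 2 in the fit of all 24 arrays, and without tumour 2 there were 8 rises. Kdr, a receptor of the vessel growth factor, fell by 1.51 ± 0.17 (SE) with no overlap (limma adjusted p = 1.39e-05), from pools at 9.65 to 10.39 to tumours at 8.21 to 8.82. Pecam1, a general marker of vessels, differed by 0.19 and was not called (limma adjusted p = 0.453). Lyve1, of lymph vessels and some macrophages, rose by 1.86 (limma adjusted p = 2.07e-05), not called in the fit of all 24 arrays. Of smooth muscle and pericyte genes 8 of 15 rose and 4 fell, with 5 rising there and among arrays without JK. Tagln, an actin-binding protein, rose by 2.24 ± 0.25 (SE) (limma adjusted p = 1.37e-05), highest on tumour 4, whose list mean was 1.21 against 0.24 to 0.56. Acta2, smooth muscle actin, rose by 1.97 (limma adjusted p = 1.35e-05), with 0.13 on its other probe set, and Mylk, the kinase of smooth muscle myosin, fell by 2.08 (limma adjusted p = 0.00011).

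Skeletal muscle, which lies around the gland, varied from array to array in both groups. Its list mean was -1.78 on tumour 5 and 0.42 to 1.39 on the other tumours, and -1.01 to 1.10 in the pools. Of 28 genes 4 rose and 0 fell. The count was 18 among JK arrays, 11 without tumour 5 and 1 in the fit of all 24 arrays. Acta1, muscle actin, read 13.90, 13.67, 13.48, 13.63 and 10.84 in tumours and 10.35 to 12.99 in pools and differed by 1.55 ± 0.60 (SE) (limma adjusted p = 0.048), a call lost among arrays without JK and without any of pools 1, 2, 4 and 5 or tumours 1 to 4. Myh4, a fast myosin, read 12.16, 11.48, 7.85, 9.46 and 5.44 and 10.72 to 13.31 and differed by -2.55 without a call (limma adjusted p = 0.0562). Without tumour 1 or 2 it was called, at -3.27 and -3.10 (limma adjusted p = 0.0152 and 0.0268), and so it was among arrays without JK. Tnnt2, the cardiac and fetal troponin T, stood apart from these. It read 12.04, 11.05, 10.92, 11.49 and 11.54 in tumours, tumour 5 included, and 4.29, 4.48 and 4.73 in the lowest, median and highest pool, a rise of 6.90 ± 0.18 (SE), 119-fold (limma adjusted p = 5.9e-10).

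Parathyroid markers varied with the kind of title. Pth, parathyroid hormone, read 14.20, 11.44, 4.27, 4.37 and 5.62 in tumours and 14.42, 14.73 and 14.78 in the lowest, median and highest pool. In the JK pair, tumour 1 was just below the pools and tumour 2 about 3 below the lowest pool, while tumours 3 to 5 were far lower. The difference of -6.69 ± 1.601 (SE) (limma adjusted p = 0.00395) was -1.80 among the JK arrays, not called there, and -10.02 among the others. Of the 4 measured parathyroid genes 3 fell, and 0 did among JK arrays. Chga, chromogranin A, which parathyroid and C cells both store, read 12.01, 9.53, 5.40, 5.37 and 5.31 and 12.91 to 14.10 in the same order, and fell by 6.002 ± 1.10 (SE) (limma adjusted p = 0.000653). The labels do not say whether glands were dissected alike for both kinds of title.

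Genes of C cells, the calcitonin-making cells between follicles, and of neuroendocrine cells fell for 10 of 20 measured and rose for 5. Grp, gastrin-releasing peptide, read 5.45, 4.23, 3.88, 4.46 and 3.78 in tumours and 10.996, 12.43 and 13.51 in the lowest, median and highest pool, a fall of 7.96 ± 0.48 (SE), 250-fold (limma adjusted p = 1.57e-07). Unlike Pth, it was low in tumours 1 and 2 as well. Scg5, a secretory granule chaperone, fell by 6.33 (limma adjusted p = 4.7e-06), with tumour 4 at 8.25 and the others at 3.74 to 5.34. Npy, neuropeptide Y, rose by 4.11 ± 0.39 (SE) (limma adjusted p = 3.93e-06), with tumours at 12.89, 13.01, 14.05, 12.23 and 12.51 and pools at 7.90 to 9.95. Calcb, a calcitonin gene-related peptide, rose by 3.45 ± 0.30 (SE) (limma adjusted p = 2.08e-06).

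Cartilage and bone genes rose for 7 of 18 measured and fell for 6, and 4 rose when the dimmest genes were left out. Acan, the main cartilage proteoglycan, read 8.64, 9.57, 10.74, 9.39 and 9.57 in tumours and 4.72, 5.42 and 5.97 in the lowest, median and highest pool, a rise of 4.22 ± 0.32 (SE) (limma adjusted p = 7.56e-07), and Comp, a cartilage matrix protein, rose by 2.64 (limma adjusted p = 8.42e-06). Col10a1, of mineralising cartilage, read 6.10, 6.01, 7.30, 11.92 and 9.58 and rose by 3.52 ± 0.90 (SE) (limma adjusted p = 0.006), high on tumours 4 and 5, and by 1.40 without a call with the bare-number block. Col2a1, which defines cartilage, rose by only 0.52 (limma adjusted p = 0.0101), and Matn1 differed by 0.01.

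Airway genes varied widely between tumours. Ltf, lactoferrin, read 10.32, 14.56, 5.57, 6.69 and 6.63 in tumours and 8.33 to 12.41 in pools, and Bpifa1, an airway secretory protein, 11.50, 14.03, 4.44, 9.30 and 9.59 and 10.96 to 14.17. Tumour 2 and pool 5 were the highest of their groups for both, neither gene was called, and the airway list mean was 1.78 on tumour 2 and 0.75 on pool 5. Of 18 airway genes 1 rose and 5 fell (5.6% and 27.8%, against 22.8% and 28.2% of all genes). The falls numbered 8 without tumour 2 and 3 with the bare-number block or in the fit of all 24 arrays. Nerve sheath genes fell for 5 of 8 measured and rose for 1, with 3 falling in either title series, with the bare-number block and in the fit of all 24 arrays. S100b fell by 3.67 ± 0.27 (SE) (limma adjusted p = 5.92e-07), from pools at 10.45 to 11.08 to tumours at 6.09 to 7.95, and Pmp22 by 2.26 (limma adjusted p = 1.84e-06).

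**Figure D5:**
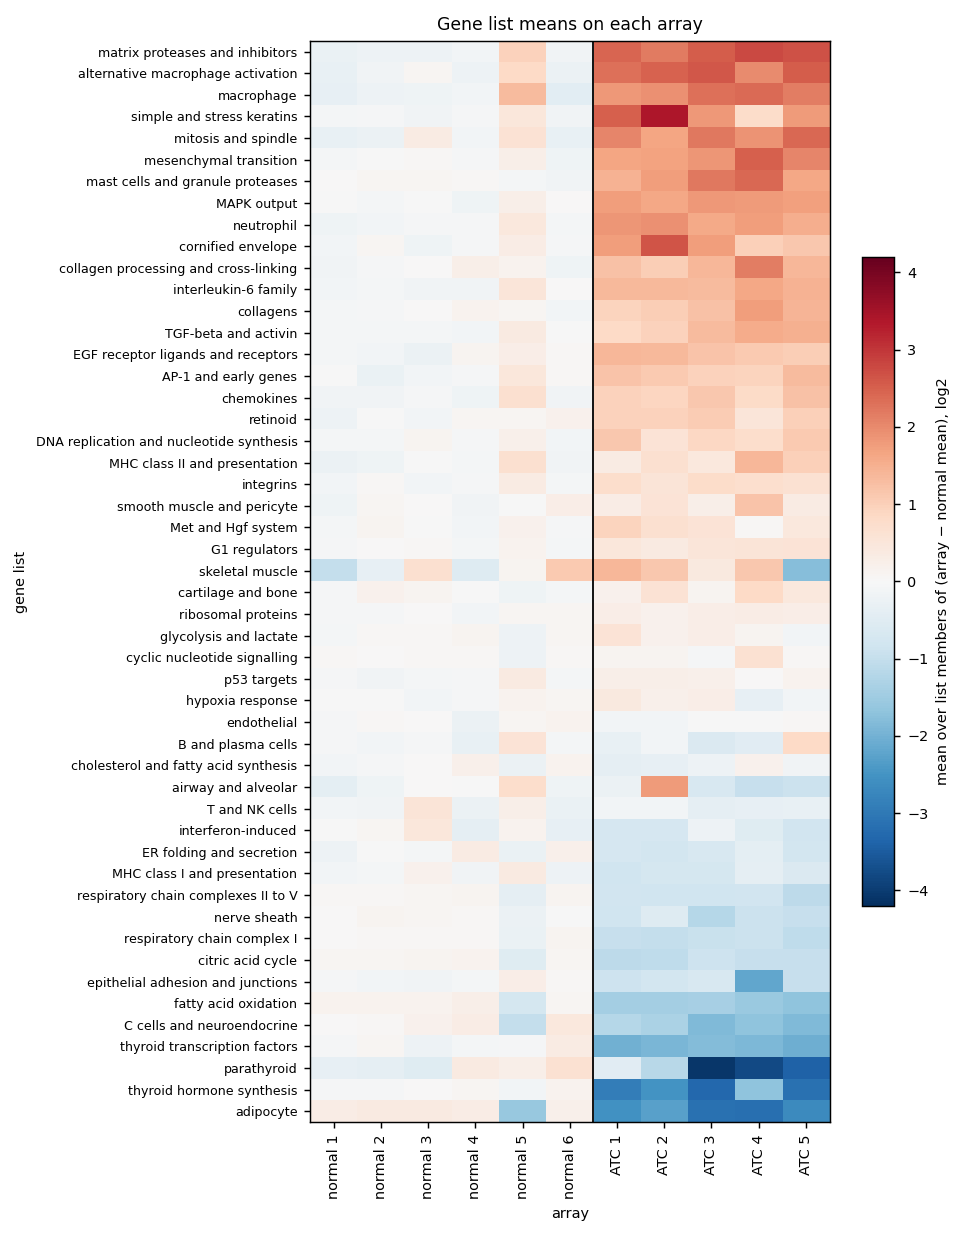
Colour gives the mean over list members (rows) of each array's level minus the mean of the 6 pools (log2), for the 6 pools and 5 tumours (columns). Tumour 4 differs from the other tumours in the epithelial (-2.20) and hormone synthesis (-1.70) lists, tumours 1 and 2 in the parathyroid list (-0.48 and -1.17), and pool 5 from the other pools in the adipocyte (-1.59) and macrophage (1.33) lists.

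Genes of the sex chromosomes divided the arrays in another way. Xist, the RNA that silences an X chromosome in females, read 12.97, 12.999, 12.89, 13.08 and 12.70 in tumours, 13.02 in pool 3 and 6.87 to 7.95 in the other 5 pools. Eif2s3y, on the Y chromosome, read 3.04 to 3.41 in tumours, 3.51 in pool 3 and 8.96 to 9.74 in the other pools, and Kdm5d and Uty, also on the Y, were low in the same arrays. All 5 tumours and pool 3 thus had high Xist and low Y-linked signal, and the other 5 pools the reverse. These levels move with the groups, and the part of sex in the differences was not tested.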

How the data were processed

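RNA of 5 anaplastic tumours and 6 normal pools, purified on spin columns, was hybridised to Affymetrix arrays. The authors deposited log2 intensities, normalized by RMA in Partek per the submitters' processing notes. They were used as deposited. Of 22690 probe sets, 20393 carry 1 gene symbol in the platform annotation, 1606 lack any and 691 have several. Current names came through gene identifiers for 20364, and 29 kept theirs. Of the 12394 genes, 4958 had several probe sets, and the set of highest mean was used. The number of per-sample columns left unused was 0.

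Group means were fitted to the 11 arrays with limma 3.58.1 in R 4.3.3 (data.table, version 1.17.8), with empirical Bayes moderation and Benjamini-Hochberg adjustment over all genes at 0.05. In data simulated for this comparison over 12394 genes, 200 of them changed, 70% of 2-fold and 96% of 4-fold changes were recovered. Of the calls, 10.75% were of unchanged genes, more than an adjustment at 0.05 aims for. The draws took each group's own spread while the fit uses 1 spread for both, and the cause of the excess was not tested. The share may also depend on how many genes change. Single array measures were tested by exact two-sided permutation, computed with NumPy, and adjusted by Benjamini-Hochberg in statsmodels. Tables and figures used Python 3.11.15, pandas 2.3.3, NumPy 2.4.6 and matplotlib 3.10.9.

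The comparison, its 50 gene lists (1146 genes, 992 measured) and the genes named were chosen with earlier results of these data known. Named were the 12 largest rises and 12 largest falls that were called without overlap, up to 4 called members per list in its leading direction and the largest the other way, fixed genes, and the most variable. Outside that rule, Duoxa2, Cdh1, Epcam, Krt8, Krt18, Vim, Ccnb2, Cdkn1a, B2m, Nppb, Eif2s3y, Kdm5d and Uty were chosen after their values were seen. Alternatives were all 24 arrays, either title series alone or as a block, WT-titled pools alone, the mean of probe sets or each on its own, the lowest 25% of genes left out, quantile normalization or median centring, array weights, a spread fitted robustly with a trend, a 2-fold threshold and leaving out each array. A block of bare-number titles was added after seeing the data. Promoters are RefSeq windows, the first where a gene has several, for 9888 genes. Trp53 is not reported here.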

Additional observations from a re-analysis of the deposited data

Results flagged for a closer look

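Among 334 sets of values, 1 per gene followed and group, 45 (13.47%) held an array that stood apart from its group by Dixon's criterion. Of these, 29 lay in the normal group and 16 in the tumours. Pool 5 made 23 of them, tumour 4 made 13 and pool 3 made 4. The criterion flags about 1 in 20 sets by chance, and some of the genes were named for their large spread within a group. Values are log2 intensities.

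Tumour 4 stood above the other tumours for genes of the differentiated gland and some growth factors: Tg at 13.478, Iyd at 9.995, Dio1 at 7.901, Tshr at 6.152, Col8a1 at 12.758, Ereg at 11.717, Btc at 11.007, Sdf2l1 at 9.524 and Slc4a5 at 7.067. The other tumours lay between 4.46 and 5.98 for Tg and between 4.56 and 5.52 for Iyd. It stood below them for the epithelial genes Cdh1 at 10.937, Epcam at 10.568, Krt8 at 13.143 and Krt18 at 13.097, where the other Epcam values were 12.47 to 12.82.

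Pool 5 stood above the other pools for Krt14 at 7.537, Krt18 at 12.707, Mmp13 at 6.718, Timp1 at 8.929, Serpinb2 at 9.069, Plau at 7.324, Inhba at 8.11, Junb at 8.481, Ereg at 7.204, Pmaip1 at 8.329, Chil3 at 6.19, Fcgr2b at 9.965, Cd68 at 9.112, Ccl6 at 11.71, Socs3 at 9.509, H2-K1 at 13.485, Ptgs2 at 7.124 and Ltf at 12.406, most of them genes that rose in tumours. It stood below them for genes of fat and mitochondria, Sdha at 11.468, Eci1 at 10.69, Scd1 at 12.76, Ucp1 at 5.6 and Thrsp at 9.758. The labels do not say what tissue beside the gland each pool held, and its part in these values was not tested.

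Pool 3 stood apart in the sex-linked genes, with Xist at 13.015 as the highest pool and Eif2s3y at 3.508, Kdm5d at 3.22 and Uty at 4.563 as the lowest. The remaining 5 concern 1 gene and array each. They are Itga5 at 6.673 (others 5.57 to 5.89) in pool 2, Mcpt1 at 3.706 (others 4.37 to 4.58) in pool 6, H2-K1 at 11.592 (others 12.06 to 12.24) in tumour 1, Thrsp at 6.886 (others 6.23 to 6.36) in tumour 2 and Acta1 at 10.838 (others 13.48 to 13.90) in tumour 5.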

How the results depend on the processing

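No paired analysis was possible because the labels give no replicate numbers that tie a tumour to a pool. With 6317 genes called at first, 3424 were called among the arrays without JK in the title (3 tumours and 2 pools, hence fewer samples), 1175 under a 2-fold threshold and 9836 when each of 20393 probe sets was tested on its own. Each other setting gave 5544 (the block of bare-number titles, an alternative chosen after seeing the data) to 6329 genes, except 4245 with all 24 arrays, and leaving out 1 array gave 5783 to 6401. The Gapdh 3' minus 5' difference turned to 0.166 among JK arrays (exact permutation p = 0.533, adjusted over 4 measures) and ran from -0.465 without tumour 2, where it passed (exact permutation p = 0.0476, adjusted), to -0.242 without tumour 3. That of Actb ran from -0.546 without tumour 2 (exact permutation p = 0.0381, adjusted) to -0.354 without pool 5 and was -0.004 among JK arrays (exact permutation p = 1.0), and the difference in array SD turned to -0.014 among JK arrays. No cause of these shifts was tested.

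Among the genes followed, those that reversed were 5 that were not called at first. Lcn2, which the naming rule picks but which is not described above, was called at 2.959 and turned to -0.921 among arrays without JK. Cdh1, at -0.01, turned to 0.345 among JK arrays, 0.111 against WT-titled pools, 0.227 with the bare-number block, and ran from -0.117 without tumour 3 to 0.305 without tumour 4. Myh4 turned to 0.455 among JK arrays. Pecam1 turned to -0.191 among JK arrays and -0.26 with that block. Ltf turned to 3.665 and 3.102 in these 2 settings and ran from -2.035 without tumour 2 to 0.212 without tumour 3, and Bpifa1 turned to 0.841 and 0.483. Of 160 called genes followed, 115 kept their call wherever they were tested and 0 changed sign, while 45 lost it somewhere: 30 under the 2-fold threshold, 25 among arrays without JK and 7 among JK arrays. For genes whose levels in 1 group lie near the lowest deposited value of 2.8, background signal sets a floor and the true fold may be larger than the one given.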
